A study of Homo sapiens with 12 samples.

Results

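The genes described here are nuclear genes named for the oxidative phosphorylation complexes, nearly all of them encoding subunits, measured in HEK293 cells with and without overexpression of RBMX, an RNA-binding protein. They were chosen by symbol alone: NDUFA, NDUFB, NDUFC, NDUFS or NDUFV followed by a number, SDHA to SDHD, UQCR, COX4 to COX8 followed by a letter, and ATP5. Symbols that end in a pseudogene suffix (P and a number) were left out. Of the 25268 symbols listed, 86 met the rule, and 2 pseudogenes were set aside. The rule also took in ATP5S and ATP5SL, which do not encode subunits, COX7A2L, a relative of COX7A2, and the read-through gene ATP5J2-PTCD1, each counted with the complex of its name. The cells, an established line of human embryonic kidney origin, received 2 μg of plasmid by transient transfection, either pCMV6-HIS-HA-RBMX, which expresses tagged RBMX, or the empty vector as the mock control. Each vector was used in 3 replicates, called cultures here. Lysates were separated on sucrose gradients, in which mRNAs carrying several ribosomes sediment into the polysomal fractions. Polysomal RNA and total RNA, the latter pooled from a share of every fraction, gave 12 libraries: 3 control total, 3 control polysomal, 3 RBMX total and 3 RBMX polysomal. Both vectors were thus compared in a single cell line. The p-values measure the spread between libraries from 3 cultures of each vector. Where the main fits held both fractions, the total and polysomal libraries of a culture entered as separate units.

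Oxidative phosphorylation makes most of the ATP of a respiring cell. Complex I (NDUF subunits) and complex II (SDH subunits) pass electrons from NADH and succinate to ubiquinone, complex III (UQCR subunits) passes them on to cytochrome c, and complex IV (COX subunits) reduces oxygen with them. Complexes I, III and IV pump protons across the inner mitochondrial membrane, and complex V, the ATP synthase (ATP5 subunits), uses the gradient to make ATP. Some subunits of all complexes but II are encoded by the mitochondrial genome. The others, described here, are nuclear genes whose mRNAs are translated in the cytosol, and many of them encode very small proteins.

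Values are FPKM, in which the fragments of a gene are divided by its transcript length and by the size of the library, so that levels are given per length. The number of fragments behind a library is unknown. FPKM values summed to between 817528 and 1903317 per library, of which 40.6% to 72.9% fell on small RNA genes. Being shares of a library, they cannot tell fewer cells of a type from less RNA per cell. All 7 HEK293 markers checked were detected, from PAX2 (mean 4.51 FPKM) to VIM (489 FPKM). Of 7 markers of other cell types, 6 had means of up to 0.113 FPKM, with HBG1 and INS listed at 0 in every library, and COL1A1 had a mean of 5.77 FPKM. RBMX itself was 133 ± 22.2 FPKM in control and 1755 ± 307 FPKM in RBMX total RNA, and 127 ± 34.3 against 1189 ± 129.5 FPKM in polysomal RNA (SD, n = 3 each). The 3 libraries of every group thus carried the level their label gives.

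As a group, these genes were among the most abundant in the cells. Those with a mean of at least 0.5 FPKM over the 12 libraries were tested, 79 of the 86. The 79 had a median level of 172 FPKM, against 12.0 FPKM for the 14676 genes tested in all. Of the 79, 77 lay above that median and 58 reached 100 FPKM. Complex IV had the highest median (430 FPKM, 12 genes tested), followed by complex V (267 FPKM, 18 genes), complex I (162 FPKM, 36 genes), complex III (122 FPKM, 9 genes) and complex II (64.4 FPKM, 4 genes). The ranges of the 5 complexes overlapped widely. NDUFA4 was counted with complex IV, to which it is now assigned.

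**Figure D1:**
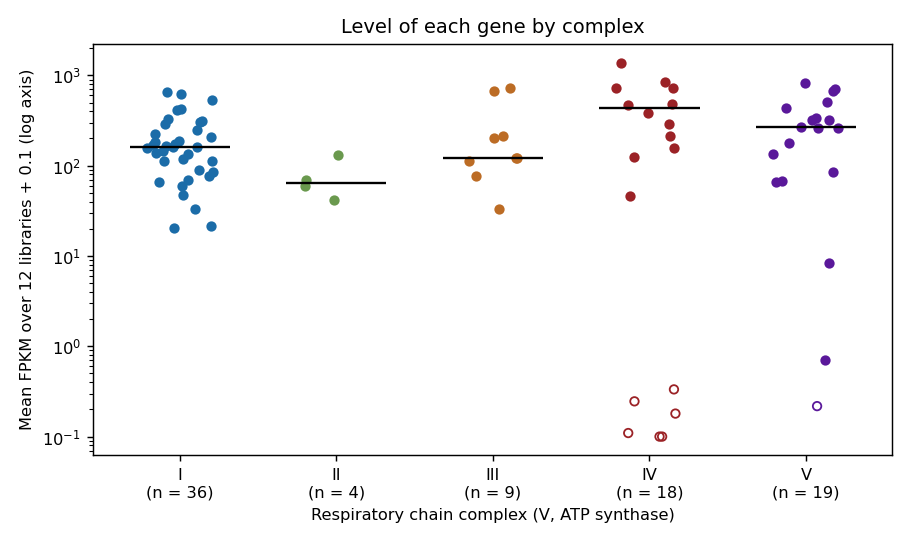
Mean FPKM over the 12 libraries plus 0.1, on a log axis, for each of the 86 genes by complex. Filled points are the 79 genes tested, open points the 7 not tested, and lines the medians of the genes tested. The 6 open points of complex IV are isoforms with means of at most 0.233 FPKM, while the 12 filled ones lie at 45.8 FPKM or above.

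The gene with the highest mean in each complex illustrates the spread between libraries. COX6B1, a small subunit of complex IV, averaged 1382 FPKM and ran from 982 to 1814. ATP5E, the epsilon subunit of the ATP synthase, averaged 816 FPKM with a wider range of 316 to 1158. NDUFA13 of complex I averaged 659 FPKM (503 to 808), SDHB, the iron-sulfur subunit of complex II, 131 FPKM (112 to 145), and UQCRHL, listed with complex III, 727 FPKM (409 to 932).

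Core subunits, which carry redox centres, catalytic sites or membrane anchors, lay on both sides of the median of their complex. In complex I the redox subunits NDUFS1 (32.9 FPKM) and NDUFV1 (89.5 FPKM) were below it. In complex II, SDHA, the flavoprotein, averaged 59.2 FPKM, and the membrane anchors SDHC and SDHD 41.8 and 69.5 FPKM. In complex III, the core protein UQCRC1 averaged 77.1 FPKM and the Rieske protein UQCRFS1 201 FPKM. In the ATP synthase, ATP5A1 (333 FPKM) and ATP5B (501 FPKM), which encode the alpha and beta subunits of the F1 part, were both above the median. The core of complex IV is encoded by the mitochondrial genome, and of its nuclear accessory subunits COX4I1 (486 FPKM) was above the median and COX5A (288 FPKM) below. Across the 79 genes the mean level had a Spearman correlation of -0.412 with coding length, against -0.257 over the 12997 genes tested with a known coding length. Genes are not independent replicates, and these values share the same libraries.

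Several complex IV subunits exist as isoforms, and the cells used the ubiquitous form in each set. COX4I1 averaged 486 FPKM while COX4I2 was listed at 0 in all 12 libraries. COX6A1 averaged 213 FPKM, against 0.00949 FPKM for COX6A2, the form of heart and skeletal muscle. COX6B1 at 1382 FPKM stood against 0.233 FPKM for COX6B2, a testis form. COX7A2 averaged 385 and the related COX7A2L, a factor in respiratory supercomplexes, 126 FPKM, while the muscle form COX7A1 had 0.0798 FPKM. COX7B averaged 721 FPKM and COX7B2 was listed at 0 throughout, and COX8A averaged 718 FPKM against 0.146 FPKM for COX8C. The 6 low isoforms and the read-through gene ATP5J2-PTCD1, which was listed at 0 in the 6 control libraries and reached at most 0.607 FPKM in the others, were the 7 genes not tested. The 3 genes for the c subunit of the ATP synthase ring were all used, with ATP5G2 at 317, ATP5G1 at 269 and ATP5G3 at 134 FPKM. ATP5L2, a copy of ATP5L, was at 0.603 FPKM against 180 FPKM for ATP5L.

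The promoters were searched for short motifs of transcription factors known to act on respiratory genes. NRF1 is the factor best known for driving nuclear-encoded respiratory subunits, and YY1 and the ETS family (GABP among them) bind many such promoters. RefSeq promoters (GRCh38.p14, 250 bases before to 50 after the gene start) were available for 67 of the 86 genes, and both strands were read. The NRF1 motif GCATGCGC was present for 14 of the 67 genes, or 20.9%, against 6.27% of the 10666 tested genes with a promoter and 3.05% of all 35116 promoters. The YY1 motif AAGATGG was present for 18, or 26.9%, against 9.20% and 5.84%. The ETS motif CCGGAAG was present for 20, or 29.9%, against 21.7% and 10.3%. At least 1 of the 3 was found for 39 of the 67 genes, or 58.2%, against 32.6% of the tested genes with a promoter and 17.6% of all promoters. A gene was counted if any of its promoters held the motif, whereas the shares of all promoters count each promoter. Counted by gene, NRF1, YY1 and ETS motifs were present for 3.68%, 7.11% and 12.2% of all 27305 genes with a promoter. These shares were not tested. Windows of 30 bases from core genes and UQCRH are shown with the motif, on either strand, in capitals, as examples of each motif in its place. They lie at chr1:17054214-17054243 and chr1:17054004-17054033 (both SDHB, minus strand), chr11:112086754-112086783 (SDHD, plus strand), chr3:48609605-48609634 (UQCRC1, minus strand), chr18:46098326-46098355 (ATP5A1, minus strand) and chr1:46303641-46303670 (UQCRH, plus strand). A match describes these letters only, and no binding was measured.
SDHB, NRF1 motif: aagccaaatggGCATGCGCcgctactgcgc
SDHD, NRF1 motif: gctgtgtttgcGCATGCGCgacgggtgtgc
SDHB, YY1 motif: cgtcaggagccAAGATGGcggcggtggtcg
UQCRC1, YY1 motif: actgcagctggAAGATGGcggcgtccgtgg
ATP5A1, ETS motif: gaggggcagtaCTTCCGGgtcaggtgggcc
UQCRH, ETS motif: agtgtgccgcaCTTCCGGccagatcgccgg

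Coding length set these genes apart as well. Their median coding length was 137 codons (GENCODE v29), against 460 codons over the genes tested. They were divided into 27 short genes (51 to 109 codons), 27 of middle length (111 to 172 codons) and 25 long genes (175 to 727 codons), with median levels of 318, 163 and 113 FPKM.

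This division matters because 3 libraries stood apart along it. Deviations are given on the log2(FPKM + 1) scale from each gene's mean over the 12 libraries. In control culture 3, the short genes were high, by a median of 0.30 in total and 0.40 in polysomal RNA, while the long genes were at -0.09 and -0.03. ATP5B was 284 FPKM in total and 280 FPKM in polysomal RNA of this culture, against 491 to 596 FPKM in the other 10 libraries. SDHA was 29.8 and 30.6 FPKM there, against 54.9 to 77.5 FPKM elsewhere. In RBMX polysomal library 2 the 79 genes were low by a median of 0.42, the short ones at -0.57 and the long ones at -0.19, and 61 of the 79 had their lowest value in it. Short genes among all genes tested were at 0.27 and 0.29 in control culture 3 and at -0.44 in RBMX polysomal library 2. In that library middle genes were at -0.29 over all genes tested, against -0.39 for the oxidative phosphorylation genes, and long ones at 0.01, against -0.19. The levels of these genes kept their order within each group, with Spearman correlations of 0.966 to 0.998 between replicates. For the genes and classes that moved most without these 3 libraries, values are given with and without them.

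**Figure D2:**
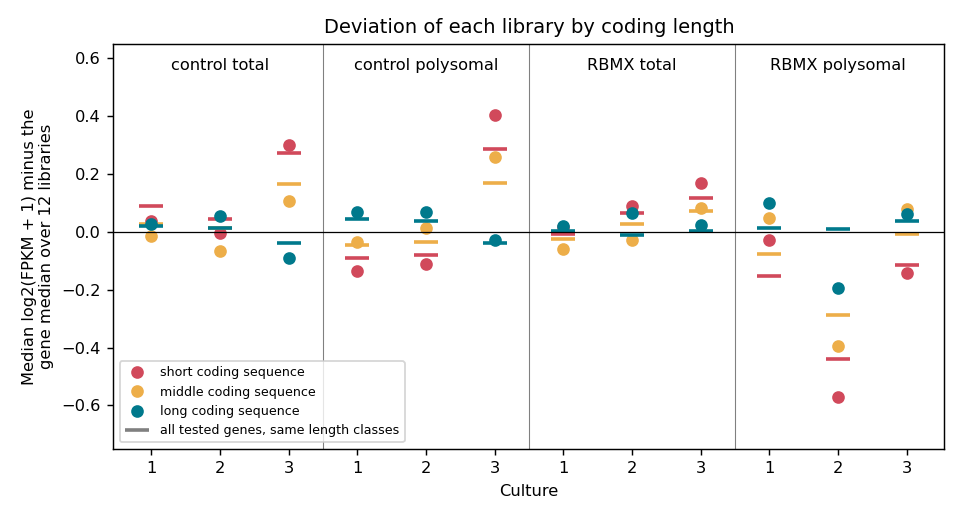
Median deviation of log2(FPKM + 1) from the gene mean over 12 libraries, for short, middle and long oxidative phosphorylation genes (points) and for all tested genes of the same length classes (dashes), in each library by group and culture. The axis label names this reference the gene median, but the gene mean was used. Control culture 3 is high for short genes in both fractions (0.30 and 0.40), and RBMX polysomal library 2 is low in all 3 classes (-0.57 for short genes).

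Polysomal RNA was compared with total RNA to see which of these mRNAs were more or less loaded with ribosomes. UQCRH and UQCRHL were lower in polysomal RNA in all 6 cultures and were the only genes of the 79 to pass the test over both vectors. Of the 79, 26 were above and 53 below 0, against 49.4% and 50.6% of all genes tested. The split turned to 53 above and 26 below with quantile normalization, and to 44 above and 35 below without RBMX polysomal library 2. UQCRH encodes the hinge protein of complex III, an acidic subunit at the site where cytochrome c docks. Its FPKM was 805, 764 and 889 in control total and 548, 562 and 884 in control polysomal RNA of cultures 1, 2 and 3. In RBMX cells it was 729, 787 and 824 in total and 439, 353 and 519 in polysomal RNA. The groups overlapped in control cells through culture 3 alone, and did not overlap in RBMX cells.

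Over both vectors, UQCRH fell by 0.59 on the log2(FPKM + 1) scale (standard error 0.16, limma adjusted p = 0.0413), from a mean of 800 to 551 FPKM. UQCRHL fell by 0.60 (standard error 0.15, limma adjusted p = 0.0346). A two-sided exact permutation test within vectors gave p = 0.015 for each, with 0.005 the smallest it allows. That test took libraries as separate units and did not pair them by culture, so it overstates the number of independent units. These 2 of 79, or 2.53%, lower and 0 higher compare with 6.32% of all tested genes called lower and 2.61% called higher, so the share called was below the background in both directions. At an unadjusted p under 0.05 there were 2 higher (ATP5D and NDUFS7) and 5 lower (the pair, ATP5E, NDUFC1 and UQCR10), or 2.53% and 6.33%, against 10.4% and 15.4% of all genes. By culture, the difference of UQCRH between polysomal and total RNA was -0.56, -0.44 and -0.01 in control cultures 1 to 3 and -0.73, -1.15 and -0.67 in RBMX cultures 1 to 3. The call was lost when any of 10 of the 12 libraries was left out (limma adjusted p up to 0.105). Without control culture 3 and RBMX polysomal library 2 the difference was -0.61 (limma adjusted p = 0.00239). These libraries were left out after the data were seen. Control culture 3 and RBMX culture 2 held the smallest and the largest difference of UQCRH, so this lower p adds no support to the call.

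UQCRH and UQCRHL cannot be taken as independent genes. UQCRH lies on chr1:46303631-46316776 (plus strand) and UQCRHL, its intronless copy, on chr1:15807169-15809348 (minus strand), in GENCODE v29 on GRCh38. Their coding sequences of 273 bases differ at 4 positions, G158A, G167A, G231A and G233A, counted from the A of the start codon with the UQCRH base first, so that they are 98.5% identical. Coding bases 144 to 173 of both are shown, with differing bases in capitals, because the assignment of fragments to the pair depends on such positions.
UQCRH: gcggctagagctctGtgatgagcGtgtatc
UQCRHL: gcggctagagctctAtgatgagcAtgtatc
How the fragments of the pair were divided between the symbols is not given in the sources used here, and the level of each is uncertain.

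**Figure D3:**
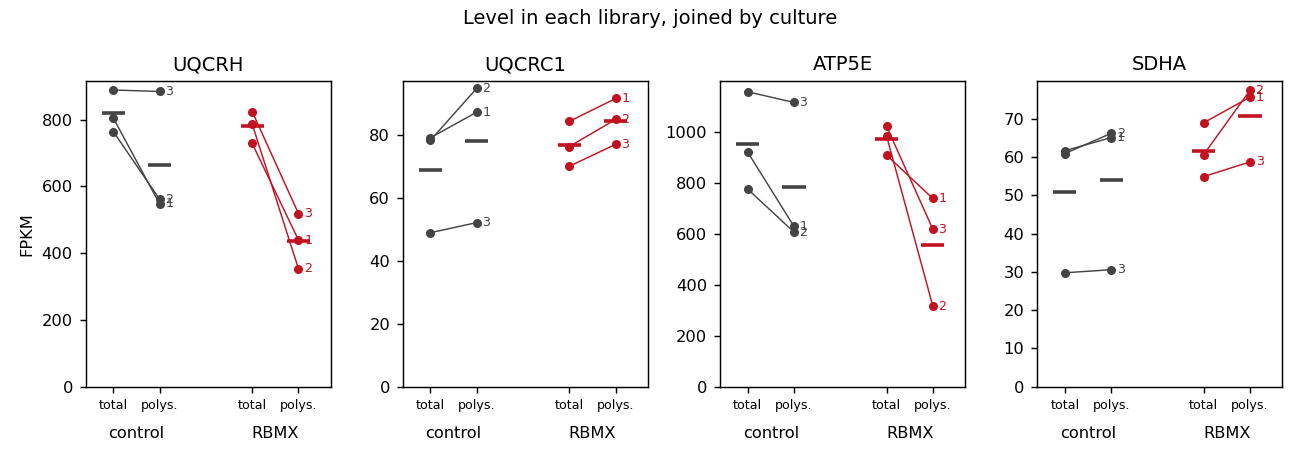
FPKM of UQCRH, UQCRC1, ATP5E and SDHA in total and polysomal RNA of each culture (points joined by culture, numbered 1 to 3), in control and RBMX cells, with horizontal bars at the means of 3. UQCRH is lower in polysomal RNA in every culture, barely so in control culture 3, and UQCRC1 and SDHA are slightly higher in every culture.

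ATP5E had the lowest difference of all 79 genes, but with more spread. Its FPKM was 921, 776 and 1158 in control total, 629, 607 and 1116 in control polysomal, 909, 985 and 1023 in RBMX total and 739, 316 and 618 in RBMX polysomal RNA. It was lower in polysomal RNA in 6 of 6 cultures, and only in RBMX cells did the groups not overlap. Over both vectors it was at -0.60 on the log2 scale (standard error 0.24, limma adjusted p = 0.142), which did not pass. Its pseudogene ATP5EP2 was listed at 97.8 to 318 FPKM, and how fragments of the pair were divided is likewise not given. Without control culture 3, where its difference was smallest (-0.05), ATP5E did pass (-0.71, limma adjusted p = 0.0484). That culture was left out after the data were seen, so this pass adds no support.

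The highest differences were small. NDUFS6, an accessory subunit of complex I, was 0.16 higher in polysomal RNA (standard error 0.09, limma adjusted p = 0.293), UQCRC1 0.15 higher (standard error 0.16, adjusted p = 0.608) and NDUFS7, a core subunit of complex I, 0.14 higher (standard error 0.05, adjusted p = 0.112). All 3 were higher in 6 of 6 cultures, as were ATP5D, the delta subunit of the F1 part, and SDHA. In the other direction ATP5E, COX6C, COX7A2L, NDUFB1, NDUFC1, UQCRH and UQCRHL were lower in 6 of 6. These 5 and 7 genes make up 6.33% and 8.86% of the 79, against 16% and 16.5% of all genes tested. With culture as a replicate block, 5 genes passed, or 6.33%, against 23.9% of all genes: UQCRH, UQCRHL and NDUFC1, an accessory subunit of complex I (-0.26, adjusted p = 0.0426), were lower, and ATP5D (0.13, adjusted p = 0.0328) and UQCRC1 (0.15, adjusted p = 0.0235) were higher.

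Short genes were lower in polysomal RNA as a class over both vectors, but not in every culture. In control cells 19 of the 27 were below 0 (median -0.04), and in RBMX cells 26 (median -0.32). By culture, their median ran from -0.665 in RBMX culture 2 to 0.09 in control culture 3. Over both vectors, 26 of the 27 short genes were below 0, with a median of -0.21, against 13 of 27 middle genes (median 0.01) and 14 of 25 long genes (median -0.03). Short genes were the lowest over all genes tested as well, with 84.0% of them below 0 (median -0.18), 68.9% of middle genes (median -0.07) and 45.0% of long genes (median 0.02). The Spearman correlation with coding length was 0.654 over the 79 genes and 0.378 over all 12997. Without control culture 3 and RBMX polysomal library 2 it was 0.652 and 0.322, and 21 of 27 short, 7 of 27 middle and 5 of 25 long genes were below 0. Among all genes tested of these classes, 82.2%, 61.7% and 38.8% were below 0 without these libraries. These are descriptions over genes that share the same libraries.

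**Figure D4:**
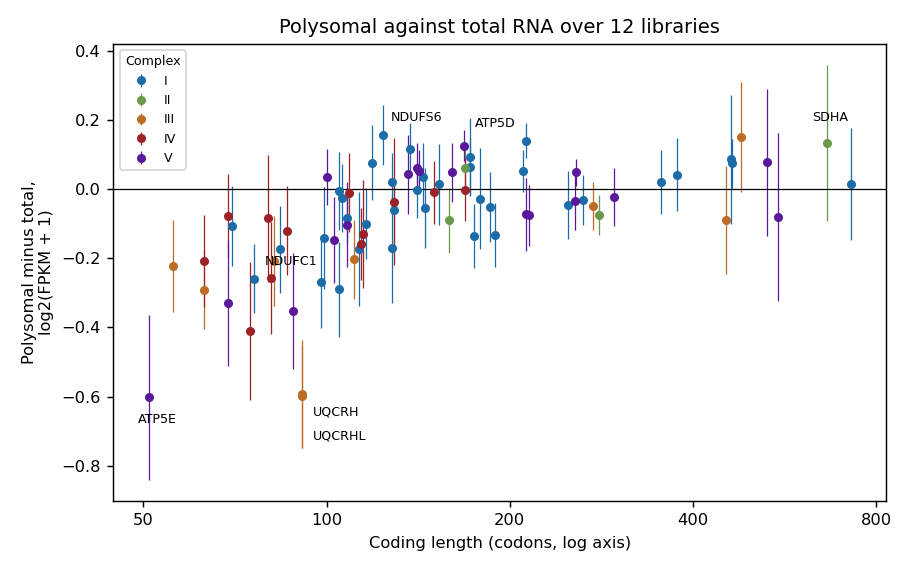
Difference between polysomal and total RNA over 12 libraries, on the log2(FPKM + 1) scale with its standard error, against coding length in codons (log axis), for the 79 genes tested, coloured by complex. Short genes lie below 0 in 26 of 27 cases, with ATP5E, UQCRH and UQCRHL lowest near -0.6, while middle and long genes have medians of 0.01 and -0.03.

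By complex, the medians were -0.21 for complex III (8 of 9 genes below 0), -0.10 for complex IV (12 of 12), -0.03 for complex I (21 of 36), -0.03 for complex V (10 of 18) and -0.01 for complex II (2 of 4). By culture, the 12 genes of complex IV were lower in 2 of 6 (COX5B and COX6A1) to 6 of 6 cultures (COX6C and COX7A2L). COX5B was at -0.88 in RBMX culture 2, against 0.13 and -0.11 in RBMX cultures 1 and 3. Medians by complex without RBMX polysomal library 2 are not given here. Over all genes tested the median was 0.00. In the same order of complexes, the median coding lengths were 91, 97, 142, 151 and 224 codons. Complex and coding length were not told apart by a test. The count for complex III includes both UQCRH and UQCRHL, which are not independent.

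Within each vector, no gene of the 79 passed the test. In control cells the median difference was 0.03, with 44 above and 35 below 0 (49.8% and 49.7% of all genes), and 0 genes were called, against 0.0204% higher and 0.0613% lower among all genes; at an unadjusted p under 0.05 there were 0 as well, against 3.2% higher and 4.84% lower. Groups did not overlap for 6 genes higher (7.59%, against 7.63%) and 0 lower (against 7.31%). In RBMX cells the median was -0.13, with 18 above and 61 below 0 (49.3% and 50.3% of all genes), and 0 were called, against 0.0273% higher and 1.31% lower. At an unadjusted p under 0.05, 9 were lower (11.4%, against 13% of all genes) and 0 higher (against 10%). Groups did not overlap for 1 gene higher and 15 lower (1.27% and 19%), against 14.6% and 16.2%. Without RBMX polysomal library 2, 33 of the 79 were below 0 and the median was 0.02. UQCRHL came closest, at -0.87 (standard error 0.15, limma adjusted p = 0.0723) in RBMX cells, and UQCRH was at -0.85 (standard error 0.17, limma adjusted p = 0.0880).

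Overexpressed RBMX was then compared with the mock control in each fraction. In total RNA the 79 genes had a median log2 fold change of 0.00, with 40 above and 39 below 0 (49.7% and 49.8% of all genes). The split depended on the scaling, with 15 above and 64 below under quantile normalization (median -0.11) and 60 above and 19 below with the coding length trend removed (median 0.06). None passed the test (limma), against 0.109% higher and 0.0545% lower among all genes, and at an unadjusted p under 0.05 there were 2 higher (COX5B and NDUFS3) and 1 lower (NDUFA5), against 7.93% and 10.8%. The median was 0.07 for long, -0.02 for middle and -0.02 for short genes.

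COX5B, a zinc-binding subunit of complex IV, was 388, 405 and 481 FPKM in control and 510, 523 and 550 FPKM in RBMX total RNA. The groups did not overlap, and the difference was 0.32 on the log2 scale (standard error 0.11, limma adjusted p = 0.217). NDUFA5, an accessory subunit of complex I, was 21.8, 21.2 and 27.4 FPKM in control and 17.7, 19.7 and 18.5 FPKM in RBMX total RNA. Here too the groups did not overlap, at -0.31 (standard error 0.11, limma adjusted p = 0.234).

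SDHA was 0.34 above control (standard error 0.30, limma adjusted p = 0.568). This value rested on control culture 3, in which SDHA was 29.8 FPKM, and without it the difference was -0.00. SDHD was at -0.21 (standard error 0.12, adjusted p = 0.395) and ATP5S, a coupling factor that is not a subunit, at -0.24 (standard error 0.12, adjusted p = 0.345). Non-overlapping groups were seen for 5 genes higher and 2 lower (6.33% and 2.53%), against 11.9% and 15.4% of all genes.

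In polysomal RNA the genes lay lower in RBMX cells as a group, but not without all 3 libraries that stood apart. Of the 79, 15 were above and 64 below 0, with a median of -0.19, while 49.5% and 49.9% of all genes tested were. The markers of HEK293 cells lay the other way, with 7 of 7 above 0 in polysomal RNA (median 0.44) and 6 of 7 in total RNA (median 0.28), none called. These markers were low in control culture 3, with VIM at 217 FPKM in its polysomal RNA. VIM was 552 and 577 FPKM in the other control and 545 to 576 FPKM in the RBMX polysomal libraries. The 79 genes were instead high in the polysomal library of control culture 3, by a median deviation of 0.26 from their gene means. All 27 short genes were below 0 (median -0.30), with 24 of 27 middle (median -0.18) and 13 of 25 long genes (median -0.02). Among all genes of the short class 87.2% were below 0 (median -0.27). Without control culture 3 alone the median of the 79 was -0.11, with 66 below 0. Without RBMX polysomal library 2 alone it was -0.04, with 50 below 0. Without all 3 libraries it was 0.02, with 11 of 27 short, 9 of 27 middle and 12 of 25 long genes below 0.

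**Figure D5:**
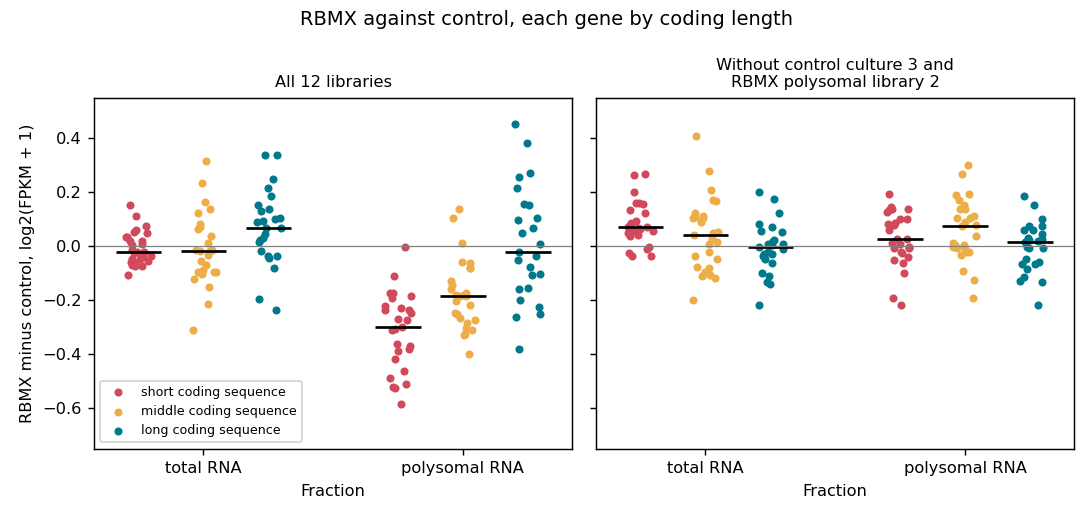
Log2 fold change of RBMX against control for each of the 79 genes in total and polysomal RNA, by coding length class, with lines at the medians, for all 12 libraries (left) and without control culture 3 and RBMX polysomal library 2 (right). The low medians of short (-0.30) and middle (-0.18) genes in polysomal RNA are at 0.03 and 0.07 without these libraries.

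No gene passed the test in polysomal RNA, against 0.0273% higher and 0.0204% lower among all genes, and 1 (ATP5S, at -0.38) reached an unadjusted p under 0.05, lower, against 6.53% of all genes (and 0 higher, against 5.16%). UQCRH was lowest, with 548, 562 and 884 FPKM in control and 439, 353 and 519 FPKM in RBMX cells. The groups did not overlap, at -0.58 (standard error 0.26, limma adjusted p = 0.428), but the difference was -0.36 without control culture 3 and -0.22 without RBMX polysomal library 2 as well. COX6C of complex IV was 139, 135 and 215 FPKM in control and 156, 74.0 and 116 FPKM in RBMX cells, at -0.53 (standard error 0.33, adjusted p = 0.530). Its groups overlapped, and it was at -0.24 without RBMX polysomal library 2 and at -0.02 without all 3 libraries. ATP5E was at -0.52 (standard error 0.42, adjusted p = 0.615), and at 0.13 without the 3 libraries that stood apart.

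Among the genes highest in RBMX polysomal RNA were long ones that were low in control culture 3. SDHA was 65.1, 66.2 and 30.6 FPKM in control and 75.7, 77.5 and 58.8 FPKM in RBMX cells, at 0.45 (standard error 0.33, limma adjusted p = 0.584), and at 0.09 without control culture 3. ATP5A1 was 383, 395 and 153 FPKM in control and 375, 324 and 336 FPKM in RBMX cells, at 0.27 (standard error 0.39, adjusted p = 0.775), and at -0.17 without control culture 3. Non-overlapping groups were seen for 1 gene higher and 8 lower (1.27% and 10.1%), against 10% and 12.5% of all genes.

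Whether the effect of RBMX differed between the fractions was tested directly over the 12 libraries. The median difference of effects was -0.16, with 6 of the 79 genes above and 73 below 0, against 49.2% and 50.8% of all genes, but none passed the test or reached an unadjusted p under 0.05 (among all genes 0.0136% were called higher and 0.00681% lower, and 0.211% and 0.388% had an unadjusted p under 0.05). UQCRH was at -0.51 (standard error 0.29, limma adjusted p = 1.00). Without control culture 3 and RBMX polysomal library 2, the median was 0.00 and 39 of the 79 were below 0. The comparison of the fractions in RBMX cells and that of the vectors in polysomal RNA share the RBMX polysomal libraries, so the low values of UQCRH and of the short genes in them are not independent.

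Other genes of the pathway were read from lists of assembly factors and of carriers and regulators. Of 48 assembly factors, 45 were listed and tested. Over both vectors 3 were lower in polysomal RNA, or 6.67%, close to the 6.32% of all genes, and 0 higher: COX17, the copper chaperone of complex IV, at -0.71 (limma adjusted p = 0.0185), COX20, which assists COX2 assembly, at -0.69 (adjusted p = 0.0131), and NDUFAF7, a methyltransferase that acts in complex I assembly, at -0.34 (adjusted p = 0.0169). COX17 was 129, 136 and 158 FPKM in control total and 87.5, 85.0 and 143 FPKM in control polysomal RNA, and 116, 136 and 145 against 71.6, 62.5 and 68.4 FPKM in RBMX cells. It was the only factor of the list called within RBMX cells (-0.96, limma adjusted p = 0.0337). Of the 13 carriers and regulators tested, PPARGC1B, a coactivator of respiratory genes, was 0.23 higher in polysomal RNA over both vectors (limma adjusted p = 0.0167). This gene was low, at 1.64 to 2.63 FPKM. It was the 1 gene of the list called, or 7.69% higher and 0 lower, against 2.61% and 6.32% of all genes. No gene of either list passed the test for RBMX against control in either fraction or for the difference between fractions. For both lists, results are those of the main fit only. Whether their calls hold with libraries left out or under other scalings is not given here. The 13 subunits encoded by the mitochondrial genome were not analysed here.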

How the data were processed

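RNA-seq of 12 HEK293 libraries (3 per combination of vector and fraction) was analysed from 1 FPKM value per gene symbol and library, as deposited by the authors. The submitters' processing notes name CASAVA 1.8, TopHat2 2.0.13, Cufflinks 2.2.1, Cuffnorm and hg19, without their order, while the paper's methods describe another route, with alignment to hg38 and counts. Which annotation lies behind the FPKM values, and how fragments shared by similar genes were divided, is not given in the sources used here. Depth in fragments is therefore unknown and no count model was applied. Of the columns, 0 were left unmatched.

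Testing was limited to genes averaging 0.5 FPKM or more, on log2(FPKM + 1), with limma 3.58.1 (R 4.3.3; lmFit, eBayes with trend), adjusted by the Benjamini-Hochberg method over all 14676 genes, with a threshold of 0.05. Fold changes on this scale understate the change of low genes. Each vector and fraction was compared within its 6 libraries, and the difference of effects and polysomal against total RNA over both vectors (vector as a term) over 12. Exact permutation tests were two-sided, and 3 against 3 cannot go below 0.1. The fits were tested on simulated data in which each library was drawn independently. That simulation held no pairing by culture and no shift of whole libraries, so it does not cover these features of the data. The methods call the triplicates biological.

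By the paper's methods, total RNA was pooled from a share of every gradient fraction, and polysomal RNA came from such gradients as well. Libraries were therefore paired by vector and replicate number, although the labels do not state that the number marks the gradient. The pairs were used only for differences by culture and for the replicate block. The main fits and the exact permutation tests did not use them. As a check, departures from the group mean were correlated between the libraries of a pair, small RNA genes left out. For cultures 1, 2 and 3 the correlation was 0.625, 0.724 and 0.858 under control and 0.234, 0.0200 and 0.695 under RBMX.

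The genes and lists were chosen with earlier results of these data known. Named genes are those called, the 3 highest and 3 lowest for polysomal against total RNA over both vectors and for RBMX against control in each fraction, the highest of each complex, and fixed core and isoform lists, of which 1 gene is not reported here. Genes named for the same direction in 6 cultures, under the replicate block, or as low or high in single libraries, were chosen after their values were seen. Coding lengths came from GENCODE v29 for 86 of 86 genes and 19019 of 25268 symbols. Python 3.11.15 with SciPy 1.17.1, pandas 2.3.3 and matplotlib 3.10.9 was used for summaries and plots. The alternatives tried were other expression filters (0.1, 1 or none), a pseudocount of 0.1, no trend in eBayes, quantile normalization, median-ratio rescaling, no small RNA genes, a replicate block, all 12 libraries in 1 fit and each replicate left out. Removing a loess trend on coding length and leaving out control culture 3, alone or with RBMX polysomal library 2, were added after seeing the data.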

Additional observations from a re-analysis of the deposited data

How the results depend on the processing

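For polysomal against total RNA over both vectors, 2 of the 79 genes were called, or 2.53%, against 8.93% of all genes. The count was 5 with the replicate block (6.33%, against 23.9%), 7 with quantile normalization (8.86%, against 10.5%), 7 with the coding length trend removed (8.86%, against 7.5%), 0 without a filter (against 3.83%), 7 without control culture 3 (8.86%, against 22.7%) and 13 without it and RBMX polysomal library 2 (16.5%, against 23%). Without a filter, 2 were higher and 7 lower at an unadjusted p under 0.05 in limma. Of all 25268 genes, 4581 reached this in either direction. Leaving out each replicate in turn gave 0 to 9, with 1 without control total replicate 1, 9 without control polysomal replicate 3, 2 without control total replicate 2 and 0 without any other. With quantile normalization the 7 genes were all higher and neither UQCRH nor UQCRHL was called, and over all genes the split was 871 higher and 669 lower, against 383 and 927 otherwise. The cause was not tested. UQCRH stayed lower in all 24 alternatives, at -0.72 to -0.21, and passed in 12 (adjusted p from 0.00239 to 0.217); UQCRHL passed in 13. Over all genes, 447 to 3512 were called, against 1310. The ranges were 6 to 199 against 12 in control cells, 4 to 444 against 196 in RBMX cells, 13 to 178 against 24 for RBMX in total RNA, 2 to 126 against 7 in polysomal RNA and 0 to 13 against 3 for the difference of effects.

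In RBMX cells, UQCRH and UQCRHL were called without small RNA genes (2 genes, or 2.53%, against 3.14% of all genes). The same 2 were called with the coding length trend removed (2.53%, against 1.32%). The median in RBMX cells moved from -0.13 to 0.0823 with quantile normalization. The median for RBMX against control in polysomal RNA moved from -0.19 to 0.0031 with the coding length trend removed and to 0.0223 without control culture 3 and RBMX polysomal library 2, and that of the difference of effects from -0.16 to 0.0042 without them. SDHA in total RNA changed sign without control total replicate 3, which is the same as without control culture 3 or all 3 libraries (-0.00083 to 0.51 over left-out replicates). In polysomal RNA, ATP5A1 changed sign without control polysomal replicate 3 (-0.17 to 0.51), and was -0.13 without RBMX polysomal library 2 as well, where ATP5E was 0.13. No gene of the 79 was called in control cells, for RBMX against control or for the difference of effects under the alternatives run. The replicate block changed no other call of these genes at the adjusted threshold. RBMX and control cultures share only a number (correlations of -0.161 to 0.353).

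The planned correction for protein length was run with coding length instead, since no protein lengths were used here. Depth is unknown, so no limit of detection is given.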
